A study of Caenorhabditis elegans with 4 samples.

Results

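Chromosome III carried 1898 of the 13091 regions at which tagged HLH-1 was detected in embryos of the nematode Caenorhabditis elegans, 14.5% of the list. They are all listed regions, called peaks, whose chromosome is III, so their number follows from the list. This rule uses no q-value or width, though it was set with earlier results of these data known. Positions are on the WormBase WS180 build. For all 4 samples the labels give shaking at 230 rpm, 2% formaldehyde and 100 mM Tris. The embryos came from hermaphrodites of the strain OP64, grown at 20 °C. That strain carries the mutation unc-119(ed3) on chromosome III and the integrated array wgIs64, which supplies an intact unc-119(+) gene as a marker and hlh-1 joined to TY1, EGFP and 3xFLAG tags. Its chromatin was immunoprecipitated with a goat antibody to green fluorescent protein in 2 ChIP samples, and 2 input samples hold chromatin of the same strain without immunoprecipitation. Both groups therefore share the mutation and the array, and no strain without the tagged protein is among the 4 samples. The array was made by particle bombardment, per the labels, and the endogenous hlh-1 gene is also present. The samples are whole embryos, in which muscle precursors are 1 cell type among several, so a peak cannot be tied to a cell type from these data.

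HLH-1 is the nematode relative of MyoD, a basic helix-loop-helix transcription factor that drives muscle fate in vertebrates. Such factors bind short E-box sequences of the form CANNTG as dimers, and HLH-1 acts in the specification and differentiation of body wall muscle, the striated muscle used for movement. Nematode chromosomes are holocentric, and autosomes have gene-rich central regions, with arms that recombine more and hold more repeats. Genes on chromosome III include unc-45, a chaperone of myosin, mlc-3, a myosin light chain, pat-2 and pat-3, the alpha and beta integrins of the muscle attachment, pat-4, the integrin-linked kinase bound to them, and emb-9, a type IV collagen. These are the 6 genes on chromosome III among 43 textbook genes of muscle, by the RefSeq annotation of another build, WBcel235. That build's positions were not used, so none of these genes is assigned to a peak, and no sequence is shown.

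The list gives 1 start, 1 end and 1 q-value for each peak, for the samples combined. It holds no read counts and no value of a single replicate, so the depth is unknown and no replicate error can be stated. The q-value, the false discovery rate given by the authors' peak caller, depends on depth and on width as well as on enrichment. It is used to rank peaks within this list, not as a measure of occupancy. Peaks with a q of 1e-10 or less are called strong here. SDs are over blocks of a chromosome, and neither blocks nor chromosomes are replicates, so differences between them are described and were not tested.

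Over its span of 13.8 Mb, up to the end of its last peak, chromosome III carried 138 peaks per Mb, and its 13 whole blocks of 1 Mb held 139 ± 26.97 peaks (mean and SD). The other 5 chromosomes ranged from 112.1 peaks per Mb on IV to 153 on I. Peaks covered 3.91% of chromosome III, between 3.31% on V and 4.56% on X. It held 13.2% of the protein-coding genes of the nuclear chromosomes in the RefSeq annotation and 14.5% of the peaks. Strong peaks numbered 388, or 20.4% of its peaks, where 19.2% of the whole list were strong. This share is near the background of the list, and the other chromosomes ranged from 14.4% on V to 24.5% on X. At a q of 1e-50 or less there were 32 peaks on III, or 1.69%, against 1.37% of the list. At the weak end, 676 peaks, or 35.6%, had a q above 0.001, against 38.6% of the list. The median q on III was 0.00017.

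The middle of chromosome III held more peaks than either end. The chromosome was divided into 3 equal parts of 4.59 Mb, and each part into 5 blocks of 0.918 Mb. The left part, up to 4590737, held 574 peaks, 30.2% of those on III, at 125 ± 25.7 per Mb (SD over 5 blocks). The middle part, from 4590738 to 9181474, held 713 peaks, 37.6%, at 155 ± 23.8 per Mb (SD over 5 blocks). The right part held 611 peaks, 32.2%, at 133 ± 27.2 per Mb (SD over 5 blocks). The density of the middle exceeded that of the left part 1.24 times and that of the right part 1.17 times, and these differences are about as large as the SD within a part. The ranges of the blocks overlapped, from 103 to 169 per Mb on the left, 132 to 192 in the middle and 94.8 to 160.1 on the right.

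As a ratio, though not in peaks per Mb, the rise towards the middle was larger for strong peaks. The left part held 110 strong peaks, 23.96 ± 11.6 per Mb (SD over 5 blocks), the middle 163, 35.5 ± 6.83 per Mb, and the right 115, 25.05 ± 4.68 per Mb. As a share of the peaks in each part, 19.2% were strong on the left, 22.9% in the middle and 18.8% on the right. The middle also had the smallest share of weak peaks, with 30.9% at a q above 0.001, against 40.2% on the left and 36.8% on the right. The left part was uneven: its 4 outer blocks held from 15.2 to 25.05 strong peaks per Mb, while the block nearest to the middle held 43.6, the highest of the 15. The middle-to-outer ratio of density was 1.20 on III for all peaks and 1.45 for strong ones. On the other chromosomes it ran from 1.04 on X to 1.30 on II for all peaks and from 1.14 on X to 1.62 on V for strong ones, so both values of III lie inside the range of the others.

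**Figure D1:**
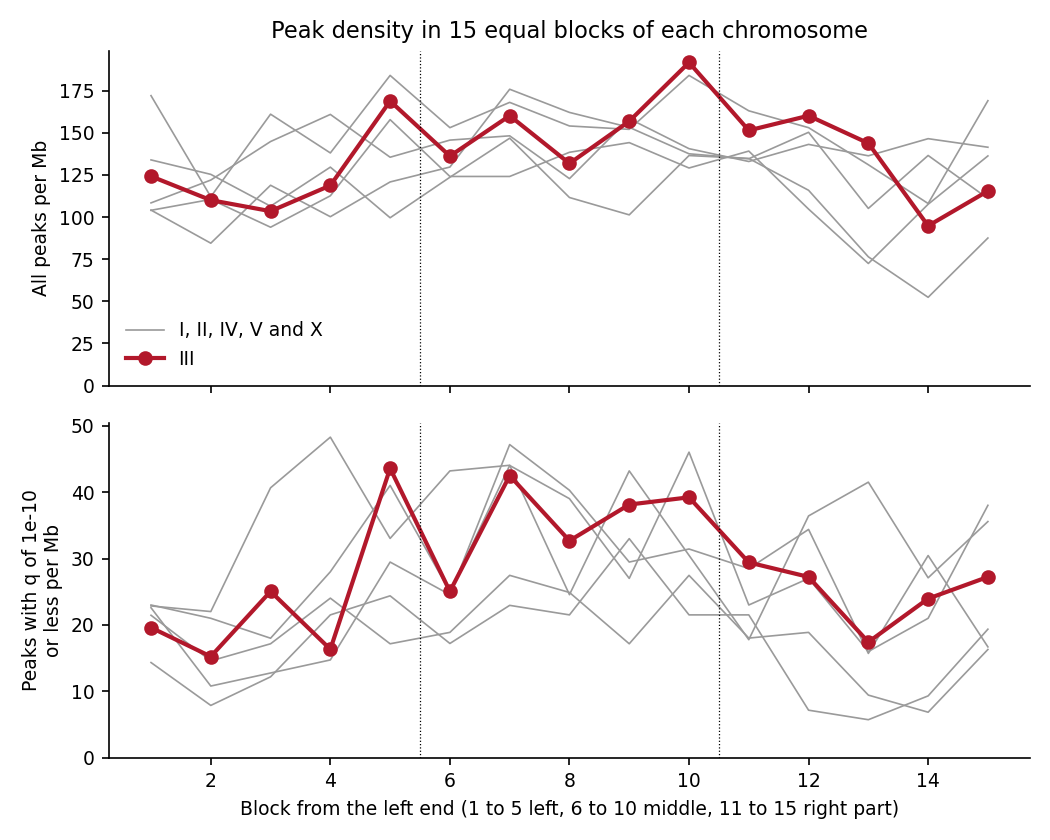
Density of all peaks (top) and of peaks with a q of 1e-10 or less (bottom), in peaks per Mb, over 15 equal blocks of each chromosome, with III in red and the other 5 chromosomes in grey. On III all peaks were densest in block 10, at 192 per Mb, and strong peaks in block 5, at 43.6 per Mb.

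**Figure D2:**
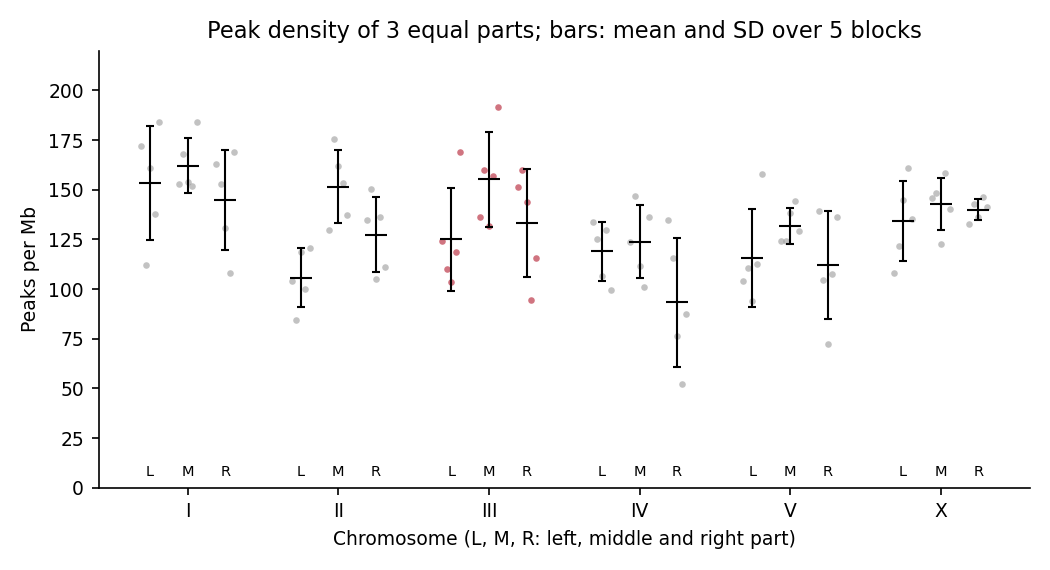
Peaks per Mb in the left (L), middle (M) and right (R) part of each chromosome; points are 5 equal blocks, horizontal marks the mean and bars the SD over blocks. On III, in red, the middle had 155 per Mb against 125 and 133, and the blocks of its parts overlapped.

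By whole blocks of 1 Mb, the fullest was from 8 to 9 Mb, with 177 peaks, followed by the block from 9 to 10 Mb with 169 and that from 5 to 6 Mb with 160 peaks. The emptiest were the block from 2 to 3 Mb with 89 peaks, that from 12 to 13 Mb with 90 and that from 0 to 1 Mb with 120. These 3 blocks held 21, 22 and 21 strong peaks, below the mean of 28.2 over the whole blocks. As a share of their peaks, 23.6% were strong from 2 to 3 Mb, 24.4% from 12 to 13 Mb and 17.5% from 0 to 1 Mb, where the share over all of III was 20.4%. The lowest shares were 13.3% from 1 to 2 Mb and 13.4% from 11 to 12 Mb, blocks with 128 and 142 peaks. The strongest peak of the chromosome lay in the sparse block from 12 to 13 Mb.

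At a finer scale, windows of 100 kb on III held a median of 13 peaks, from 4 to 29, and none of 137 was empty. The fullest, from 9600001 to 9700000, held 29 peaks of which only 4 were strong. The next, from 7500001 to 7600000, held 26 peaks with 11 strong ones, more strong peaks than any other window of III. The windows from 1900001 to 2000000 and from 7700001 to 7800000 held 25 peaks each, with 6 and 5 strong ones. A full window was thus not always a window of strong peaks: the one from 4300001 to 4400000 held 16 peaks, and 8 of them were strong. Of the 137 windows, 15 had no strong peak, 10.9%, where the other chromosomes had from 5.65% on X to 25.8% on V.

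Peaks on III were mostly short. The median width was 229.5 bp, with quartiles of 144 and 344 bp. On the other chromosomes the median ran from 210.0 bp on V to 280.0 bp on X, and the upper quartile from 360.0 bp on V to 423 bp on X, so the upper quartile of III was the lowest of the 6. The parts of III differed little, with medians of 216 bp on the left, 234 bp in the middle and 237 bp on the right. Peaks of 200 to under 500 bp made up 48.7% of the peaks on III and 51.96% of the covered bases. Peaks of 500 to under 1000 bp were 9.54% of the peaks on III against 12.7% on the other chromosomes together. Those under 50 bp numbered 177, or 9.33%, close to the 9.48% of the list, and 4 of them were listed as a single base, each with a q of 0.00242 or more.

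Of all widths, exactly 200 bp was the most common. On III 75 peaks, 3.95%, had this width, and 3.48% of the list did. The next most common width occurred 14 times on III, and the other widths within 10 bp of it occurred 5.4 times each on average. The same width led on each of the other 5 chromosomes, with 64 to 91 peaks. None of the 75 on III was strong, and their smallest q was 1.24e-06. They lay in all parts, 20 on the left, 33 in the middle and 22 on the right. Which step set this width is not given in the sources used here and was not tested.

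Width and q were closely tied. A q-value can depend on the reads over the whole peak, and how far this sets the tie was not tested. Under 200 bp, 0 of the 751 peaks on III were strong, and the smallest q among them was 7.17e-07, for a peak of 161 bp from 6288207 to 6288367. Such narrow peaks were not strong on the other chromosomes either, where their smallest q was 2.38e-08, on I. From 200 to under 500 bp, 23.9% of the 925 peaks of III were strong, within the range of the others, which was 17.1% on IV to 25.7% on X. From 500 to under 1000 bp the share was 70.2% of 181 peaks, against 42.7% on IV to 62.9% on X. At 1 kb or more it was 40 of 41 peaks, or 97.6%, against 73.8% on V to 91.9% on I. In both wider classes III therefore had the highest share of the 6 chromosomes. Taken from 500 bp upward, 55 of its 222 peaks were not strong, while 170 of 323 were not on IV and 143 of 425 were not on X. Over the peaks of III, width and −log10 q had a Spearman's rho of 0.74 (n = 1898 peaks, which share libraries and peak calling), and within its parts 0.71 on the left, 0.78 in the middle and 0.72 on the right.

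**Figure D3:**
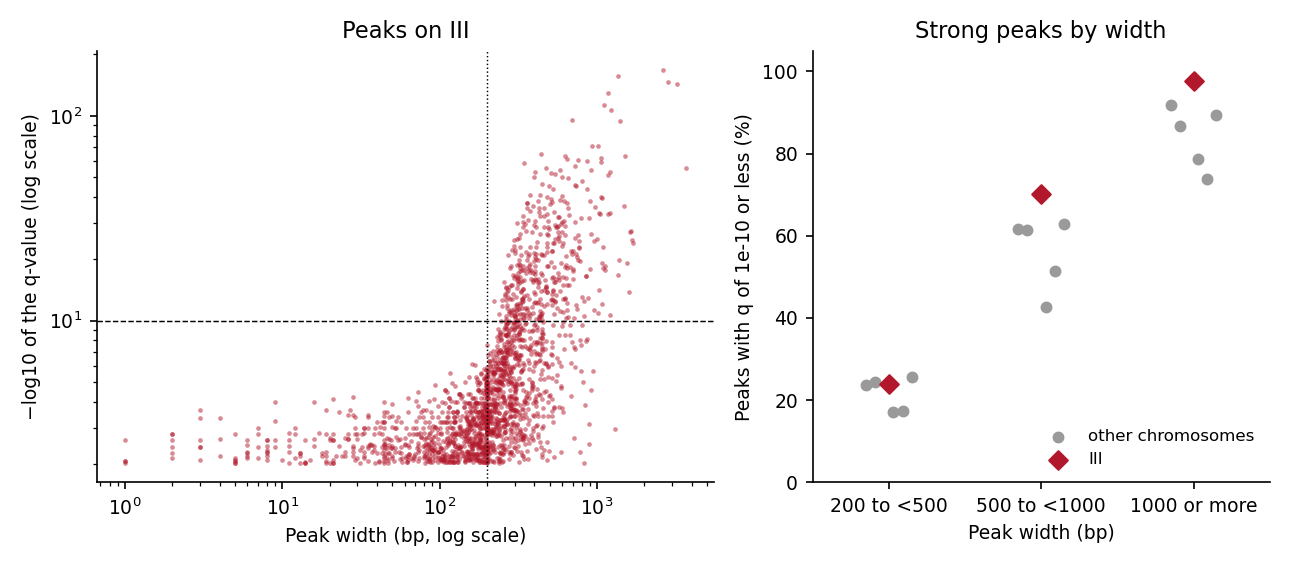
Left, width in bp and −log10 q of each peak on III, both on log scales; the dotted line marks 200 bp and the dashed line a q of 1e-10. Right, the percentage of peaks with a q of 1e-10 or less in 3 width classes, with III as red diamonds and the other 5 chromosomes as grey points. On III no peak under 200 bp crosses the dashed line, and III stands highest at 500 to under 1000 bp (70.2%) and at 1000 bp or more (97.6%).

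The 41 peaks of 1 kb or more were 2.16% of the peaks on III, against 1.89% of the list, and made up 10.9% of the bases that peaks covered there. They were spread over the chromosome, 12 on the left, 13 in the middle and 16 on the right. Of the 41, 15 lay in runs of 5 or more peaks, where a run joins neighbours at most 2 kb apart. Of all peaks on III 8.85% lay in such runs, and 11.0% of the list did. Wide peaks leave shorter distances to their neighbours, and this was not separated. The 10 widest were 4 on the left, 2 in the middle and 4 on the right.

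The widest region of III ran from 10905906 to 10909574, over 3669 bp, with a q of 1.34e-56, which ranks 22 on III. Second was the region from 4280367 to 4283580, 3214 bp wide, with a q of 2.92e-144. The region from 11934549 to 11937386 was 2838 bp wide with a q of 1.18e-146, and that from 12367918 to 12370544 was 2627 bp wide with a q of 2.52e-167. These 4 were the only peaks of 2 kb or more on III, and 3 of them were among its 4 strongest, while the widest was not. The other 6 of the 10 widest ran from 1553 to 1688 bp and were far weaker in rank, from 102 to 274 on III. They began at 9702989, 5939691, 349286, 9079828, 3619789 and 65036. The exception among wide peaks was a region of 1302 bp from 9770736 to 9772037, whose q of 0.00109 was the only one above 1e-10 in the class of 1 kb or more.

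The array supplies extra copies of unc-119, a gene on chromosome III, and of hlh-1, a gene on chromosome II. Extra copies can raise read numbers at a locus in ChIP and input alike. The position of unc-119 on WS180 was not used, so no peak of III was compared with it, and its part in the width or q of any region above or below was not tested.

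Of the 10 strongest peaks of III, 6 lay in the right part, 3 in the middle and 1 on the left, although the right part had fewer strong peaks than the middle. The right part held 32.2% of all peaks on III. At a q of 1e-50 or less the middle led, with 15 peaks against 11 on the right and 6 on the left. The strongest, from 12367918 to 12370544, stood alone, 16395 bp from the peak before it and 6717 bp from the next. The second, from 5930633 to 5931991, had a q of 6.33e-157 in 1359 bp and was also alone, with 4612 and 7699 bp to its neighbours. The third, the region of 2838 bp that begins at 11934549, had neighbours at 253 and 269 bp on either side and belonged to a run of 7 peaks. The eighth followed it at 11942430, 691 bp wide, with a q of 4.82e-96.

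The fourth strongest, at 4280367, was also in a run of 7 peaks, and the fifth, from 13062058 to 13063233 with a q of 1.31e-130, in a run of 8. The sixth, from 9346006 to 9347116, had a q of 4.11e-114. The seventh and the ninth were neighbours, 402 bp apart: 8799639 to 8800868 with a q of 1.95e-107 and 8801271 to 8802671 with a q of 1.01e-94. The tenth, from 9741763 to 9742781, had a q of 5.88e-72. Strong peaks therefore occurred both alone and in company: 3 of the 10 were in no run, 5 were in runs of 6 to 8 and the others in runs of 2 and 3. All but 1 of the 10 were wider than 1 kb, the exception being the one of 691 bp.

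Neighbouring peaks lay a median of 3650 bp apart, from the end of one to the start of the next, and never less than 200 bp. The smallest distance in the whole list was also 200 bp. Which step set it is not given in the sources used here, and its part in widths, runs and neighbours was not tested. Of the peaks on III, 964, or 50.8%, had another midpoint within 2 kb, and 50.6% of the list did. The left part was looser, with 44.9%, than the middle with 54.98% and the right with 51.4%. Strong peaks had another strong midpoint within 2 kb in 91 of 388 cases, 23.5%, where the other chromosomes ranged from 16.9% on IV to 20.6% on I, so III had the highest value of the 6. Peaks more than 10 kb from any other numbered 124, or 6.53%, against 7.01% of the list.

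Joined into runs by steps of at most 2 kb, the peaks of III fell mostly into short groups. On III 847 peaks, 44.6%, stood alone, 237 runs had 2 peaks and 123 had 3 or 4. Runs of 5 or more numbered 26 and held 168 peaks, 8.85% of those on III, where 11.0% of the list lay in such runs. Per length this was 18.9 runs per 10 Mb, second lowest of the 6 chromosomes but close to the 18.99 on II. The 6 ranged from 16.02 on IV to 33.3 on I. The middle part, densest in peaks, had the fewest long runs: 6, with 41 peaks, against 8 with 50 peaks on the left and 12 with 77 peaks on the right. Of the 26 runs, 20 held at least 1 strong peak, where 20.4% of all peaks on III were strong. A run of 5 or more has several peaks that may be strong, and runs of the other chromosomes were not counted this way. The count is therefore not read as a trait of these runs.

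Peaks in longer runs were more often strong. The share rose from 15.8% of the peaks that stood alone to 22.6% in runs of 2, 23.2% in runs of 3 or 4 and 30.95% in runs of 5 or more. Median width rose with it, from 203 bp to 304.5 bp, and wider peaks are more often strong and leave shorter distances, so the parts of width and company were not separated. On the other chromosomes together the shares were 14.1%, 19.7%, 23.3% and 28.8%, the same order with similar values.

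The 3 longest runs on III had 10 peaks each, 1 in each part. The first, from 1918956 to 1932523, spanned 13568 bp with 38.9% of its bases in peaks. Its 4 strong peaks were consecutive, from 1920837 to 1926856, with widths of 861, 1052, 1054 and 847 bp and q-values of 1.76e-44, 4.87e-41, 3.88e-63 and 3.81e-17. Those of 1052 and 1054 bp were separated by 200 bp, the smallest distance in the list. The last 4 peaks of the run were not strong and 8 to 570 bp wide.

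The run in the right part, from 9695445 to 9707676, covered 12232 bp, 44.4% of it in peaks, and also had 4 strong peaks. They were moderate, with q-values from 1.17e-24 to 1.99e-12, and 1 was the fifth widest region of III, 1688 bp long. The run in the middle, from 8291138 to 8303181, was the loosest, with 27.96% in peaks. It had 2 strong ones, of 373 bp with a q of 1.44e-41 and of 489 bp with a q of 2.91e-19, among 8 that were not strong. The 3 runs thus matched in number of peaks and differed in strength and cover. Runs of 8 followed, from 13060715 to 13073929 and from 7524085 to 7531691. The strongest peak of the former had a q of 1.31e-130 and that of the latter a q of 2.81e-14. Counting strong peaks alone, no series had more than 4, and the other series of 4 ran from 4356372 to 4360270.

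**Figure D4:**
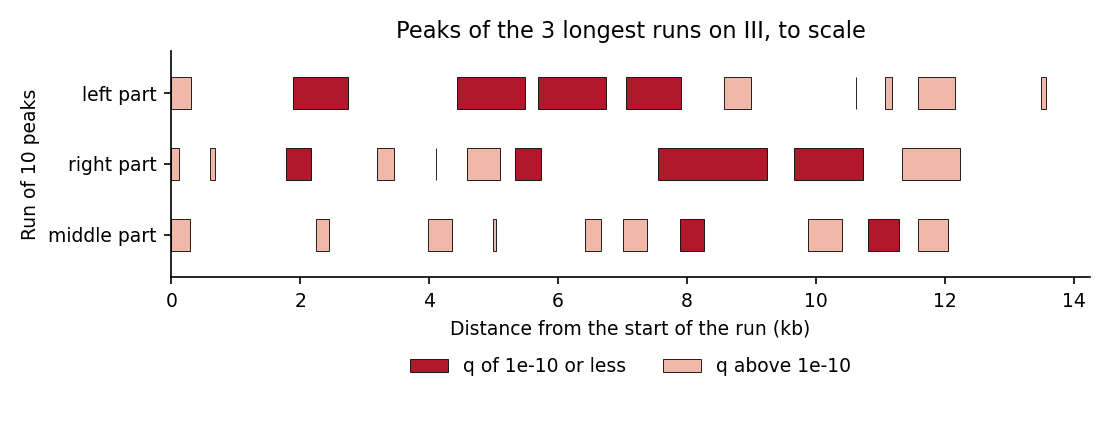
The 3 runs of 10 peaks on III, drawn from the start of each run in kb, with peaks to scale, dark where q is 1e-10 or less and pale where it is larger. The run of the left part has 4 dark peaks in a row, that of the right part 4 of which the last 3 are in a row, and that of the middle part 2.

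The longest empty stretches on III were short in comparison, on the chromosome with the shortest span. The longest, from 12738180 to 12802519, measured 64.3 kb, while the longest of the other chromosomes ran from 70.8 kb on I to 251 kb on V. Distances in general were not shorter: the distance exceeded by 10% of them was 17834 bp on III, within the range from 15637 bp on I to 21583 bp on IV. There were 10 stretches over 50 kb on III, or 7.26 per 10 Mb, the lowest of the 6 chromosomes, which otherwise had from 7.90 on X to 20.6 on IV. The next were 61.9 kb from 5723690 to 5785635, 61.6 kb from 12273720 to 12335343, 60.9 kb from 2314450 to 2375398 and 57.5 kb from 711409 to 768937. Of the 10, 5 lay on the left, 1 in the middle and 4 on the right. Of the 10, 3 were bordered on 1 side by a strong peak, none of them among the 5 longest. The emptiest windows of 100 kb on III, 5 with 4 peaks each, lay between 2 and 3 Mb or between 12 and 13 Mb.

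Strong peaks are a subset of all peaks, so stretches without a strong peak are by definition at least as long. They can hold peaks with a q above 1e-10. The longest, 268 kb from 2172582 to 2440722, held 16 weaker peaks. The next, 264 kb from 11482209 to 11746500, held 29. The longest such distance on the other chromosomes ran from 254 kb on X to 668 kb on V. The median distance between neighbouring strong peaks was 21.2 kb on III, between 15.9 kb on X and 30.2 kb on IV. Over adjacent peaks at any distance, q-values were nearly unrelated, with a Spearman's rho of 0.067 over 1897 adjacent pairs on III. The other chromosomes ranged from 0.016 on IV to 0.095 on II. Close pairs were not taken apart from distant ones.

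**Figure D5:**
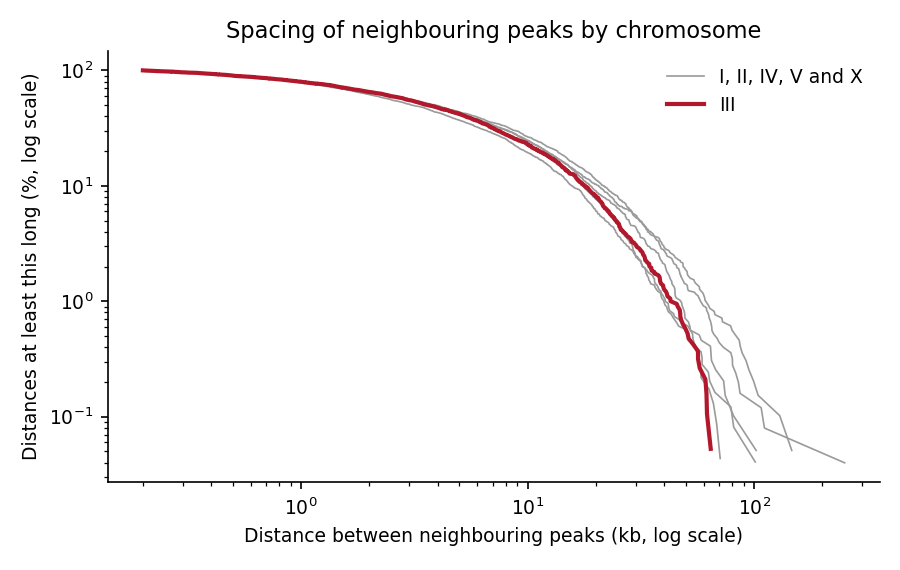
Percentage of distances between neighbouring peaks that are at least as long as the value on the x axis, in kb, both axes log scaled, for III in red and the other 5 chromosomes in grey. III runs among the others up to about 50 kb and ends first, at 64.3 kb.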

How the data were processed

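ChIP and input libraries of 2 replicates each were summarised by the authors in 1 list of peaks. Per the file headers the build is WormBase WS180, and the source column names PeakSeq. The file is named as combined; whether peaks were called on pooled reads or merged from calls of each replicate is not stated, and widths and q-values would differ between these. The deposited columns used are the first base, the last base and the q-value of every peak, and no q-value is above 0.00994. The aligner, the read filters, the scaling against input and the versions were not given in the sources used here. Of its peaks, 0 were duplicates and 0 overlapped, and neighbours were at least 200 bp apart.

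From these, widths (end minus start plus 1), densities, runs and distances were obtained in Python 3.11.15 using pandas 2.3.3 with numpy 2.4.6; scipy 1.17.1 gave the binomial intervals and matplotlib 3.10.9 the plots. The code was tested on a simulated list. The span of a chromosome is counted from base 1 to its last peak's end, and a peak was placed by its midpoint. No test was run, since there are no values of single samples. The members, measures and limits were chosen with earlier results of these data known. Regions named are the 10 strongest, the 10 widest, the 3 longest runs, the 5 longest empty stretches and the extreme blocks and windows of III; others were singled out after their values were seen. Genes and sequences were not assigned, because the gene table at hand is on WBcel235.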

Additional observations from a re-analysis of the deposited data

How the results depend on the processing

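Of 36 recomputed values on III, 16 stayed near the main value and 20 moved. Near means within the SD over blocks of 1 Mb for density, within the 95% binomial interval over peaks for shares and the median, which treats peaks as independent, and within 1.5 times for the longest run and stretch. Most of the shifts follow from the setting itself, which keeps fewer peaks or changes a distance. With only peaks of a q of 1e-05 or less, density was 52.1 per Mb, the middle part held 40.03% of peaks, the median width was 365 bp, 32.8% had a neighbour within 2 kb and the longest empty stretch was 152 kb. With a q of 1e-10 or less these values were 28.2 per Mb, 42.01%, 455 bp, 23.5% and 268 kb, and the longest run had 4 peaks. Without peaks narrower than 50 bp the strong share was 22.5%, the median width 248 bp and the share with a neighbour 48.3%. Peaks with a q of 1e-05 or less were 37.8% of those on III, and peaks at 1e-20 or less were 8.64%. The share with a neighbour was 24.5% at 1 kb, 78.7% at 5 kb and 55.4% from end to start. Steps of 5 kb gave a longest run of 19 peaks. The middle part held a larger share than the left part in all 5 settings in which the parts were compared. These settings reuse the same peaks in whole or in part, so they are not separate support. The share of the right part was not recomputed. Leaving out peaks of exactly 200 bp, chosen after the data were seen, moved none of the 3 values it was tried on. This took out 3.95% of the peaks on III, none of them strong, so the density and the strong share had little room to move. The median width became 237 bp, only just inside its interval of 219 to 238 bp. No paired analysis was possible because no column belongs to 1 replicate, and for the same reason no replicate could be left out. Weak regions beyond the threshold of the list and the unknown depth limit what the weak end can show.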
